A study of Mus musculus with 2 samples.

Results

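The mitochondrial genome of the mouse carries genes for 13 mRNAs, 2 rRNAs and 22 tRNAs, and these 37 genes were examined out of 47644 genes in the deposited table. They were taken as the rows whose symbol begins with mt- or whose chromosome is the mitochondrial one, which the table writes chrMT. The series holds RNA sequencing of whole eyeballs from C57BL/6 mice in oxygen-induced retinopathy (OIR), a model in which newborn pups breathe high oxygen, lose retinal vessels and then regrow them abnormally in room air. The OIR group is 1 library from eyes taken at day 17, after 5 days in a hyperoxia chamber that began at day 7. The NOR group is 1 control library of the same strain and tissue, for which the labels give no oxygen exposure and no collection day of its own. The labels give neither the sex nor the number of eyes or animals behind either library. By its stated purpose the series asks what accompanies long-lasting visual dysfunction in this model.

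Mitochondria copy their small circular genome into long RNAs that run around each strand and are then trimmed. The tRNAs lie between most of the other genes, and their removal frees the mRNAs and rRNAs. The mRNAs encode core subunits of respiratory chain complexes I, III and IV and of ATP synthase (complex V), the rRNAs build the mitochondrial ribosome, and all other mitochondrial proteins come from nuclear genes. The retina, and photoreceptors in particular, is known for dense mitochondria and high oxygen use.

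Reads assigned to genes numbered 20378793 in OIR and 15741235 in NOR. Each group is 1 library, so no difference below has a replicate check, and no p-value was computed. Beside each ratio of read shares, OIR over NOR, stands its exact 95% interval, which covers counting error only: the reads carry no molecular identifiers, and the spread between animals was not measured. Markers of rods, cones, bipolar cells, ganglion cells, Müller glia, lens and cornea were present in both libraries. Rod markers took 3.11% of reads in OIR and 3.07% in NOR, and lens markers 9.43% and 13.2%. Of the 11 lens markers, Lim2 was listed at 0 in both libraries.

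The RNA classes differed in direction. The mRNA genes took a smaller share of reads in OIR, the rRNA genes a far larger one, and the only tRNA gene with reads a smaller one. The mRNA genes had 292387 reads in OIR and 312373 in NOR, which is 1.43% and 1.98% of all reads, a ratio of 0.723 (0.719 to 0.727). The rRNA genes had 15741 reads in OIR and 778 in NOR, a ratio of 15.6 (14.5 to 16.8). The tRNA genes had 232 reads in OIR and 290 in NOR, all of them on mt-Tp, a ratio of 0.618 (0.518 to 0.737). Within the mitochondrial reads, rRNA made up 5.10% in OIR (5.03 to 5.18) and 0.248% in NOR (0.231 to 0.266). In a bulk sample, fewer cells rich in mitochondria and less mitochondrial RNA per cell cannot be told apart. Lens markers also held a lower share in OIR, and with them left out of the totals the mRNA ratio was 0.693. This left out only the listed lens markers, not all lens RNA, and the part of lens in the mRNA ratio was not tested.

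**Figure D1:**
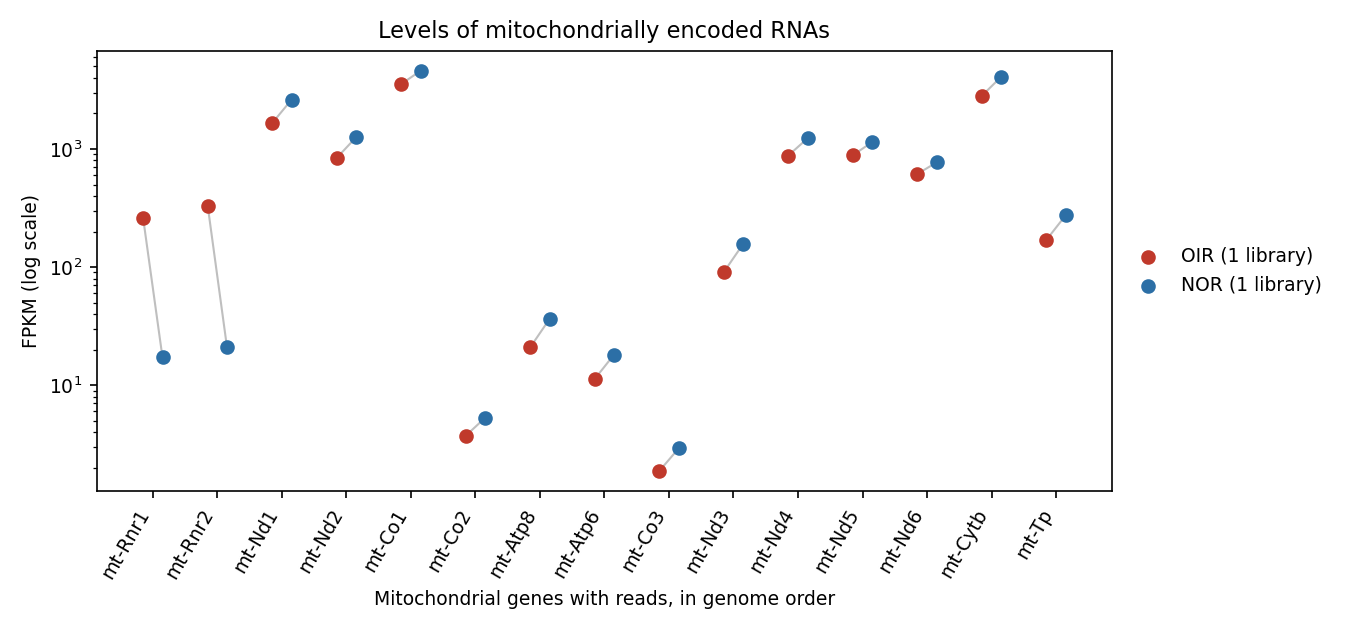
FPKM (reads scaled for gene length and library total) on a log axis for the 15 mitochondrial genes with reads, in genome order, with 1 point per library and a line joining OIR to NOR. The 2 rRNA genes stand above NOR in OIR, at 259 against 17.2 FPKM for mt-Rnr1, and the other 13 genes stand below it.

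Only 15 of the 37 genes had any read, and all 15 passed the filter used throughout, at least 1 FPKM in OIR or in NOR. Each of them passed it in both libraries, the lowest being mt-Co3. Genes that passed are called tested, although no test was made. Differences are given as log2(FPKM + 1), OIR minus NOR, a scale on which folds of weakly expressed genes look smaller than they are. All 12 tested mRNA genes lay below 0, with a median of -0.51 and a range of -0.79 to -0.32, where 35.1% of the 15883 tested genes of the whole table lay below 0 and their median was 0.11. None of the 12 was at least 2-fold lower, where 0.718% of all tested genes were. At least 1.5-fold lower were 4 of the 12, mt-Nd3, mt-Atp8, mt-Nd1 and mt-Atp6, where 2.58% of all tested genes were. The interval of the ratio lay wholly below 1 for 10 of the 12, where it did so for 14.7% of all tested genes. Whether an interval excludes 1 depends on read depth, and this comparison was not matched for depth.

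Complex I takes electrons from NADH, and 7 of its subunits are mitochondrially encoded. Their genes together had 114759 reads in OIR and 126624 in NOR, a ratio of 0.700 (0.694 to 0.706). The gene mt-Nd1 encodes a membrane subunit beside the quinone site, and it stood at 1655 FPKM in OIR and 2612 in NOR, a ratio of 0.634 (0.624 to 0.643). The antiporter-like subunit gene mt-Nd2 stood at 839 FPKM in OIR and 1256 in NOR, with a ratio of 0.668 (0.654 to 0.681). The other antiporter-like subunit genes were less far apart between the libraries: mt-Nd4 stood at 880 FPKM in OIR and 1233 in NOR, a ratio of 0.714 (0.701 to 0.726). For mt-Nd5 the levels were 885 FPKM in OIR and 1144 in NOR, a ratio of 0.773 (0.761 to 0.785). The intervals of mt-Nd1, mt-Nd2, mt-Nd4 and mt-Nd5 did not overlap one another, so these genes differed from each other in ratio by more than counting error.

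The gene mt-Nd6 is the only mRNA gene on the opposite strand from the other 12. It stood at 615 FPKM in OIR and 770 in NOR, and its ratio of 0.798 (0.771 to 0.827) was the highest of the 12 tested mRNA genes, although its interval overlapped those of mt-Nd5 and mt-Co1, among others. The 2 genes face each other and share 14 bases. No source used here says whether counting was by strand, so reads from these shared bases, and from any antisense RNA over either gene, cannot be told apart. The small subunit gene mt-Nd3 had 643 reads in OIR and 860 in NOR, or 90.7 and 157 FPKM, a ratio of 0.578 (0.521 to 0.640). The gene mt-Nd4l had no read in either library. At its length of 297 bases, 3 reads, the limit that a count of 0 allows, would be 0.496 FPKM in OIR and 0.642 in NOR. That limit bounds the reads counted, not the RNA level.

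Complex III hands electrons to cytochrome c, and its catalytic subunit cytochrome b is encoded by mt-Cytb. That gene stood at 2820 FPKM in OIR and 4090 in NOR, a ratio of 0.690 (0.682 to 0.697). It ranked 19th of all genes in OIR and 17th in NOR. Complex IV, cytochrome c oxidase, reduces oxygen to water, and mt-Co1 encodes the subunit that holds the catalytic heme and copper. With 111555 reads in OIR and 111696 in NOR, mt-Co1 was the most abundant of the 37 genes, at 3543 FPKM in OIR and 4593 in NOR. Its ratio was 0.771 (0.765 to 0.778), and its rank among all genes was 17th in OIR and 16th in NOR. Because mt-Co1 was less reduced than most, its part of the mt-mRNA reads was larger in OIR, at 38.2%, against 35.8% in NOR. The part of mt-Nd1 was smaller in OIR, where it had 32283 of 292387 reads, against 39353 of 312373 in NOR.

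The other members of complexes IV and V stood far below these levels in both libraries. The gene mt-Co2, for the subunit that receives electrons from cytochrome c, had 52 reads in OIR and 57 in NOR, or 3.73 and 5.29 FPKM, a ratio of 0.705 (0.474 to 1.04). The gene mt-Co3, for the third core subunit, had 30 reads in OIR and 36 in NOR, a ratio of 0.644 (0.383 to 1.07). For these 2 genes the interval included 1, and no difference between the libraries was detectable at this depth. In ATP synthase, the proton channel subunit gene mt-Atp6 had 157 reads in OIR and 195 in NOR, a ratio of 0.622 (0.501 to 0.771). Its neighbour mt-Atp8, for a small membrane subunit, had 87 reads in OIR and 117 in NOR, a ratio of 0.574 (0.430 to 0.765). The FPKM of mt-Co1 was 1887 times that of mt-Co3 in OIR and 1574 times in NOR, although both encode subunits of the same complex.

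The genes at these low levels have copies in the nuclear genome. Each of the 37 transcripts was aligned to all other annotated transcripts of GENCODE M21, on the same build, and 7 unprocessed pseudogenes matched at 99% identity or more. They lie together on the minus strand of chromosome 1, at chr1:24611535-24616197 (mm10), in the same order as their mitochondrial originals. Gm28661, Gm10925, Gm28437 and Gm10222 matched mt-Co2, mt-Atp6, mt-Co3 and mt-Nd4l without a mismatch over 681, 678, 783 and 294 aligned bases, and Gm28438 matched mt-Nd3 with 1 mismatch over 345. These 5 mitochondrial genes were near-identical to a copy over more than 90% of their length, while mt-Nd4 was so over 63.6%, mt-Co1 over 31.3% and mt-Atp8 over 21.1%. The 233 bases between Gm10925 and Gm28661 on chromosome 1 lie in no annotated transcript, so the rest of mt-Atp8 was not compared. No annotated copy at this identity was found for mt-Nd1, mt-Nd2, mt-Nd5, mt-Nd6, mt-Cytb, the rRNA genes or the tRNA genes.

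**Figure D2:**
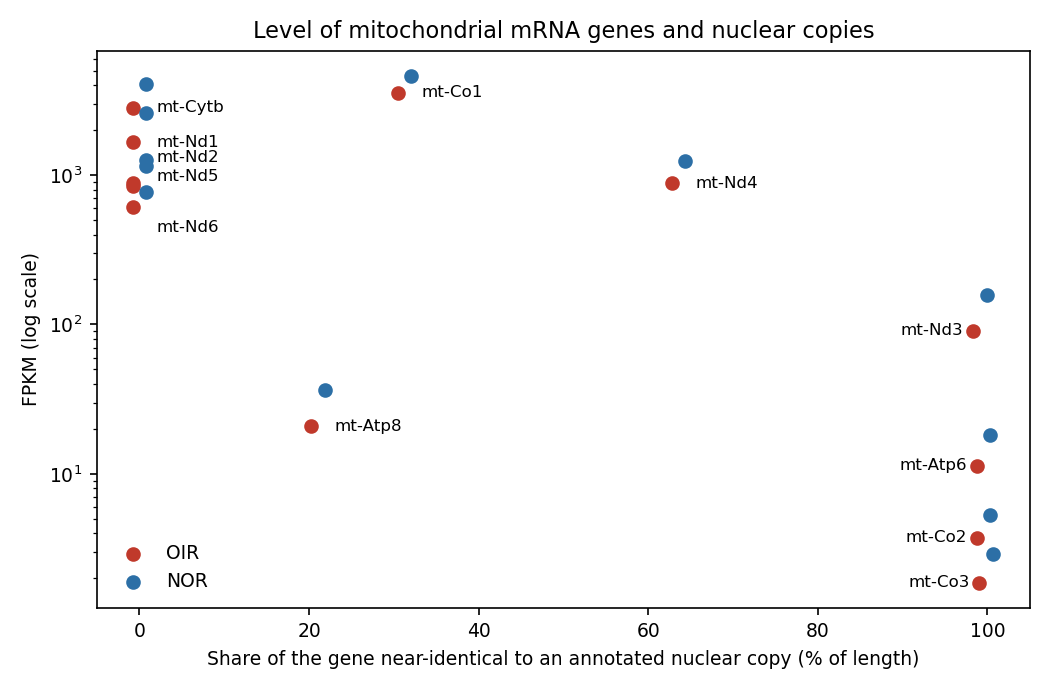
FPKM on a log axis of the 12 mRNA genes with reads, against the share of each gene's length that is near-identical to an annotated nuclear copy, with the OIR and NOR points of a gene drawn side by side. The 4 genes at the right edge, mt-Nd3, mt-Atp6, mt-Co2 and mt-Co3, lie between 1.88 and 157 FPKM, below the genes with no such copy, which lie at 615 FPKM or more.

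Reads that fit the mitochondrial gene and its copy equally well may have been dropped or split, so the levels of mt-Co2, mt-Atp6, mt-Co3, mt-Nd3, mt-Nd4l and mt-Atp8 are uncertain, and those of mt-Nd4 and mt-Co1 to a lesser degree. The median level of the 5 genes with a copy over more than 90% of their length was 3.73 FPKM in OIR and 5.29 in NOR. That of the other 8 mRNA genes was 882 FPKM in OIR and 1244 in NOR. No source used here gives the handling of such reads, and its part in these levels was not tested. The direction between the libraries was alike on both sides: the 5 genes together had a ratio of 0.593 (0.543 to 0.648) and the other 8 together 0.723 (0.720 to 0.727). The 2 intervals did not overlap, but mt-Nd3 alone held 643 of the 882 OIR reads and 860 of the 1148 NOR reads of the 5 genes. Their joint ratio is thus mostly that of mt-Nd3, not a trait shown for genes with copies. The 7 copies themselves had 218 reads in OIR and 150 in NOR, of which Gm28438 had 189 and 132. The ratio of Gm28438 was 1.11 (0.881 to 1.39), above that of mt-Nd3.

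The start of mt-Nd3 is shown with that of Gm28438 because the only base by which they differ, in capitals, lies in the start codon. The difference is T3C, counted from position 1 at the start of mt-Nd3, with the mitochondrial base before the position and the base of the copy after it. The stretches are chrMT:9459-9501 on the plus strand and chr1:24613077-24613119 on the minus strand (mm10, GENCODE M21 transcripts).
mt-Nd3: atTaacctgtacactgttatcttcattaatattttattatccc
Gm28438: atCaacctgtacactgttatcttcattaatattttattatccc

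The genes mt-Atp8 and mt-Atp6 are read in different frames from a shared RNA and overlap by 43 bases, chrMT:7927-7969 on the plus strand. The overlap is shown because reads inside it belong to both genes and could not be assigned to either by sequence; capitals mark the start codon of mt-Atp6 and the stop codon of mt-Atp8.
Overlap of mt-Atp8 and mt-Atp6: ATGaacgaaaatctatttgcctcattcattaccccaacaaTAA

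The overlap takes up 21.1% of mt-Atp8 and lies within Gm10925 as well. Between mt-Nd4l and mt-Nd4 the overlap is 7 bases.

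**Figure D3:**
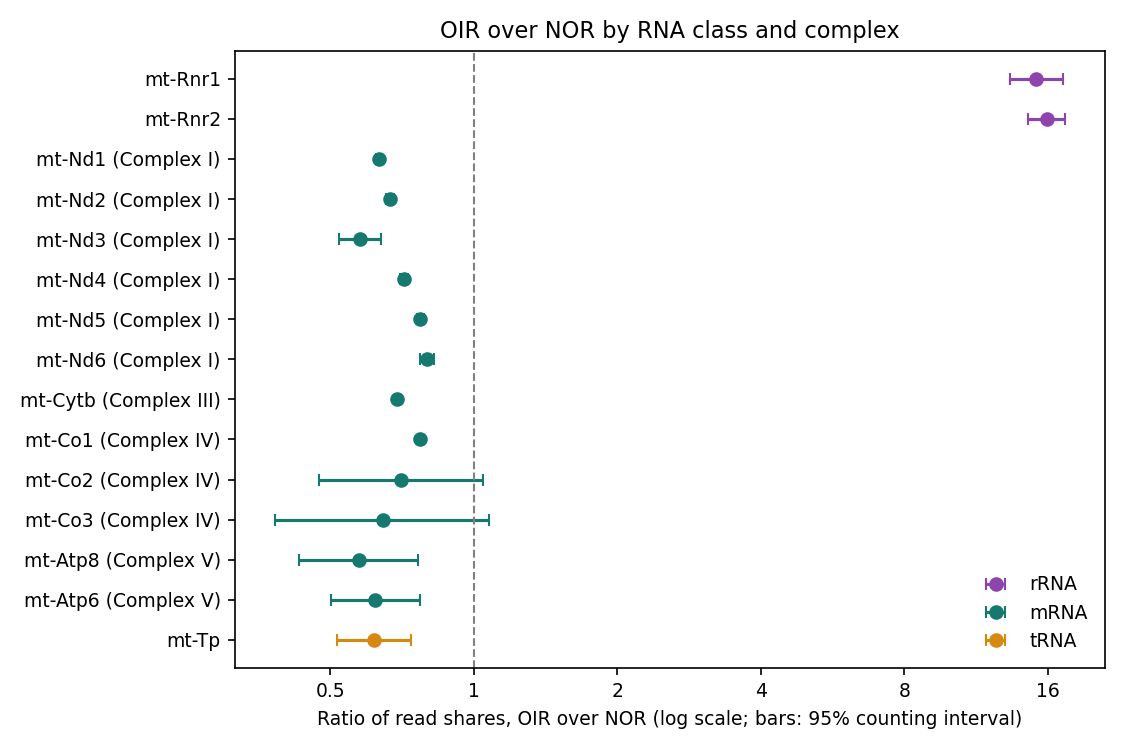
Ratio of read shares, OIR over NOR, on a log axis for the 15 genes with reads, ordered by RNA class and complex, with bars for the exact 95% counting interval. The 2 rRNA genes lie at 15.1 and 15.9, the mRNA genes between 0.574 and 0.798, and mt-Tp at 0.618; mt-Co2 and mt-Co3 have bars that cross 1.

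The rRNA genes stood against the mRNA genes in direction and size. The small-subunit rRNA gene mt-Rnr1 (chrMT:70-1024) had 5045 reads in OIR and 258 in NOR, or 259 and 17.2 FPKM, a ratio of 15.1 (13.3 to 17.2). The large-subunit rRNA gene mt-Rnr2 (chrMT:1094-2675) had 10696 reads in OIR and 520 in NOR, or 332 and 20.9 FPKM, a ratio of 15.9 (14.5 to 17.4). Both were at least 2-fold higher in OIR, where 3.07% of all tested genes were, and both are marked up in the authors' deposited table, with log2 fold changes of 3.78 and 3.85. No other mitochondrial gene is marked in the authors' deposited table. These marks compare 1 library with 1 library, so they add no replicate check to the read counts. The intervals of the 2 rRNA genes overlapped, and mt-Rnr2 exceeded mt-Rnr1 in FPKM by 1.28 times in OIR and 1.22 times in NOR. In rank among all genes, mt-Rnr2 was at 184 in OIR and 4651 in NOR.

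In living mitochondria the rRNAs are the most abundant products of the genome. In both libraries they stood below mt-Nd1, mt-Co1 and mt-Cytb per length. The labels name total RNA and the NEBNext Ultra RNA kit and give no step of rRNA removal or poly(A) selection. The FPKM of mt-Rnr2 was 0.200 times that of its downstream neighbour mt-Nd1 in OIR and 0.00799 times in NOR. Nuclear rRNA was also higher in OIR. The 354 genes that GENCODE M21 types as nuclear rRNA had 15450 reads in OIR and 467 in NOR, a ratio of 25.6 (23.3 to 28.1). The chromosome 17 gene CT010467.1 held 15324 of these reads in OIR and 377 in NOR, a ratio of 31.4 (28.3 to 34.9). The other 353 had a ratio of 1.08 (0.819 to 1.43). Short RNA classes that mostly lack poly(A) tails had few reads. Small nuclear RNA genes had 734 reads in OIR and 420 in NOR, a ratio of 1.35 (1.20 to 1.53). Small nucleolar RNA genes had 1094 and 724, a ratio of 1.17 (1.06 to 1.28). Small Cajal body RNA genes had 231 and 177, a ratio of 1.01 (0.825 to 1.23). Miscellaneous RNA genes had 474 and 358, a ratio of 1.02 (0.890 to 1.18). A list of 13 small structural noncoding RNA genes had 252 reads in OIR and 260 in NOR, a ratio of 0.749 (0.627 to 0.894). In it, Rpph1 and Rn7sk had ratios of 0.707 (0.497 to 1.004) and 0.721 (0.581 to 0.895), and Rnu73b 1.43 (0.532 to 4.25). Being short, these RNAs do not show how much long rRNA was carried into each library. The part of a general difference in rRNA content between the libraries in the mt-rRNA result was not tested. With all rRNA genes left out of the totals, the mt-mRNA ratio was 0.724.

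The tRNA genes were almost without reads. Of the 22, 21 had no read in either library. They are 59 to 75 bases long, and 3 reads would be 1.96 to 2.50 FPKM in OIR and 2.54 to 3.23 in NOR. These figures bound the reads counted, not the RNA level. Many of the 21 genes adjoin or overlap a neighbour, and no source used here gives how reads over adjoining genes were counted. The only tRNA gene with reads was the proline tRNA gene mt-Tp (chrMT:15356-15422, minus strand), the last gene before the control region. It had 232 reads in OIR and 290 in NOR, or 170 and 275 FPKM, a ratio of 0.618 (0.518 to 0.737). That ratio lay on the side of the mRNA genes, and its interval did not reach that of mt-Rnr1 or mt-Rnr2. It rests on mt-Tp alone and is not a direction shown for the tRNAs. With the use of strand unknown, tRNA, precursor and antisense RNA cannot be told apart in these reads.

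The sequences of 3 tRNA genes are shown with the anticodon in capitals, written as DNA: mt-Tp, the only one with reads, and the tRNAs that mark the ends of the rRNA genes. The valine tRNA gene mt-Tv (chrMT:1025-1093) separates the 2 rRNA genes, and the leucine tRNA gene mt-Tl1 (chrMT:2676-2750) separates mt-Rnr2 from mt-Nd1. The ratio was 15.9 on the mt-Rnr2 side of mt-Tl1 and 0.634 on the mt-Nd1 side. In human mitochondria the termination factor MTERF1 is known to bind within this tRNA gene, and any part of termination in these ratios was not tested.
mt-Tp: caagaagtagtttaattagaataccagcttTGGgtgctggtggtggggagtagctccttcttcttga
mt-Tv: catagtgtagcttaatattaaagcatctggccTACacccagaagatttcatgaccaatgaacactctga
mt-Tl1: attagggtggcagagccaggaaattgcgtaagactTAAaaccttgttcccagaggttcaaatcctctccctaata

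Nuclear genes whose products work with these RNAs were followed as lists. The 78 nuclear subunits of the respiratory chain complexes had 75 members below 0, where 35.1% of all tested genes were, with a median difference of -0.37 and a range of -0.58 to 0.32. None of the 78 was at least 2-fold higher or lower, where 3.07% of all tested genes were higher and 0.718% lower. The comparison with all tested genes was not matched for gene length. Together the 78 genes took 0.715% of reads in OIR and 0.897% in NOR, a ratio of 0.797 (0.792 to 0.803), against 0.723 for the mitochondrial mRNA genes. By complex, the median difference was -0.35 over 36 complex I genes, -0.26 over 4 complex II genes, -0.35 over 9 complex III genes, -0.45 over 14 complex IV genes and -0.32 over 15 complex V genes. Complex II, which has no mitochondrially encoded subunit, had the smallest median of the 5 in size.

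**Figure D4:**
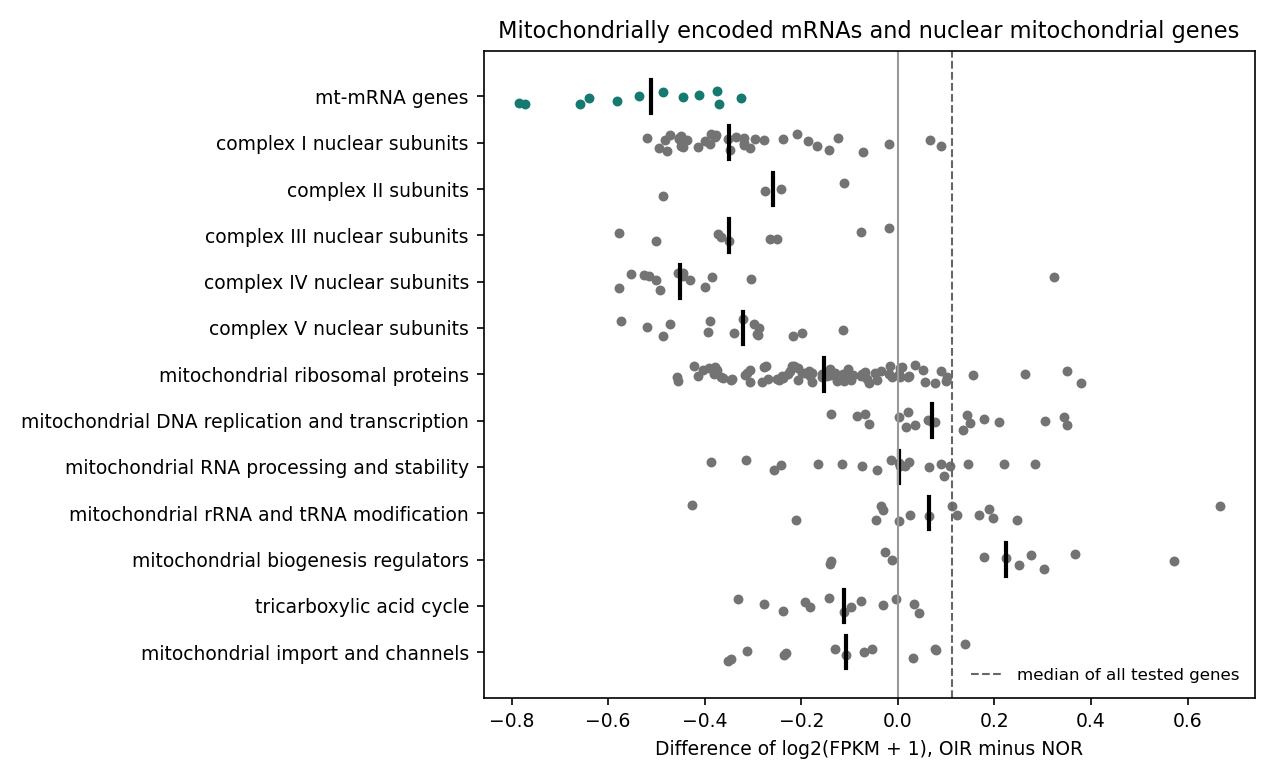
Difference of log2(FPKM + 1), OIR minus NOR, for each tested gene of the mitochondrial mRNA set and of 12 nuclear lists, 1 point per gene, spread vertically for visibility. Black bars are list medians and the dashed line is the median of all tested genes, 0.11; the mt-mRNA median of -0.51 lies farthest to the left. The list of aminoacyl-tRNA synthesis genes is not drawn, since Lars2, at 3.79, lies far beyond the axis.

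In complex I, the accessory subunit genes Ndufa6 and Ndufa13 had ratios of 0.695 (0.627 to 0.770) and 0.706 (0.657 to 0.759), while Ndufb2 had 1.07 (0.907 to 1.26). In complex II, Sdhd and Sdhb, a membrane anchor and the iron-sulphur subunit, had 0.708 (0.645 to 0.776) and 0.823 (0.760 to 0.893), and the flavoprotein gene Sdha 0.926 (0.888 to 0.965). In complex III, Uqcr10 and Uqcr11 had 0.668 (0.616 to 0.724) and 0.705 (0.654 to 0.760), and Uqcrfs1, for the Rieske iron-sulphur protein, 0.987 (0.906 to 1.07). In complex IV, Cox6b1 and Cox5b had 0.668 (0.624 to 0.716) and 0.681 (0.644 to 0.719). Cox4i2, the subunit isoform known to be induced by low oxygen, had 459 reads in OIR and 281 in NOR, a ratio of 1.26 (1.09 to 1.47). In complex V, Atp5e and Atp5k had 0.670 (0.631 to 0.711) and 0.697 (0.645 to 0.752), and Atp5a1, for the alpha subunit, 0.924 (0.896 to 0.953).

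The proteins that surround the rRNAs in the mitochondrial ribosome are also nuclear products. Of their 79 genes 78 were tested, 61 below 0 and 17 above, where 35.1% of all tested genes lay below 0 and 64.9% above. Their median was -0.15, where that of all tested genes was 0.11. None was at least 2-fold higher or lower, where 3.07% of all tested genes were higher and 0.718% lower. Mrpl46 and Mrps21 had ratios of 0.713 (0.596 to 0.853) and 0.727 (0.658 to 0.803), and Mrps30 had 1.39 (1.06 to 1.82). The genes for copying and transcribing mitochondrial DNA had 15 of 19 above 0, where 64.9% of all tested genes were, and their median of 0.07 lay below the 0.11 of all tested genes. In that list the termination factor genes Mterf1a and Mterf1b, close copies whose reads are uncertain between them, had ratios of 1.37 (1.04 to 1.81) and 1.51 (0.907 to 2.59), and the mitochondrial topoisomerase gene Top1mt 0.897 (0.751 to 1.07). RNA processing and stability genes had a median of 0.00 over 20. Pnpt1, a polynucleotide phosphorylase, had 1.24 (1.07 to 1.43), and Lrpprc, which stabilises mitochondrial mRNAs, 1.17 (1.07 to 1.28). Hsd17b10, a subunit of the mitochondrial RNase P that cuts the leading ends of tRNAs, had 0.758 (0.666 to 0.863). Genes that modify mitochondrial rRNA and tRNA had a median of 0.06 over 15. Nsun4, an rRNA methyltransferase needed for ribosome assembly, had 1.63 (1.43 to 1.87), Mto1, a tRNA-modifying enzyme, 1.21 (1.00 to 1.45), and Mettl15, another rRNA methyltransferase, 0.683 (0.487 to 0.957).

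Enzymes that charge mitochondrial tRNAs numbered 22, with 14 genes above 0, 8 below and a median of 0.09. These lay near the 64.9% above 0 and the median of 0.11 over all tested genes. The leucyl-tRNA synthetase gene Lars2 stood apart, with 8282 reads in OIR and 406 in NOR, a difference of 3.79. Its ratio of 15.8 (14.3 to 17.5) lay between those of mt-Rnr1 and mt-Rnr2, and the nuclear rRNA gene CT010467.1 had 31.4. Lars2 was the only gene of the list at least 2-fold higher, where 3.07% of all tested genes were. Whether the reads counted for Lars2 came from its own mRNA or from rRNA was not tested. The phenylalanyl-tRNA synthetase gene Fars2 had a ratio of 0.851 (0.708 to 1.02).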

How the data were processed

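RNA-seq of 1 OIR and 1 NOR eyeball library was analysed from 1 deposited table. Bowtie2 2.2.3, TopHat2 2.0.12, HTSeq 0.6.1 and build mm10 are named in the submitters' processing notes. No source used here gives their order or settings, the annotation release or the use of strand. Per the file headers, the deposited table gives read counts and FPKM per gene, and for the 15 members with reads count and FPKM returned the table's gene length within 1 base. It also gives a scaled signal, made by the authors by dividing each library's counts by a factor (21.4 for OIR and 15.0 for NOR), used only for those factors. The authors' log2 fold changes were copied where named as theirs. The authors' deposited p-values compare library with library and were not used.

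After 5 broken lines were dropped, 47644 genes remained. The rule's chromosome names were taken to include chrMT. Symbols of 13 members came from the table and 24 from GENCODE M21 by identifier. Differences used log2(FPKM + 1) and genes at 1 FPKM or more in OIR or NOR. Intervals are exact conditional binomial (Clopper-Pearson). Transcripts were aligned with BLAST+ 2.17.0, and listed as near-identical at 99% identity or more. The scripts were tested on simulated data, and Python 3.11.15 and scipy 1.17.1 were used throughout. Members, lists and classes were chosen with earlier results of these data known. Every member with reads is named; of each nuclear list, the 2 genes farthest in the direction of its median and the 1 farthest the other way, except 1 gene that is not reported here. The lists of cell type markers are given by read share, with single members named only where they qualify a sum. The list of small structural noncoding RNAs had 4 of 13 genes tested, with a median difference of -0.07.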

Additional observations from a re-analysis of the deposited data

How the results depend on the processing

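The 12 tested mitochondrial mRNA genes stayed below 0 under every scaling and centring tried, most of which moved their median further below 0. A pseudocount or filter cannot change the sign of a difference, so those settings could not have altered direction. Against its reported -0.51, the mt-mRNA median difference was -0.56 with pseudocounts of 0.1 and of 0.01, -0.49 with no filter, -0.54 with an FPKM of at least 5, -0.42 rescaled to TPM, -0.57 without lens markers in the totals, -0.62 centred on all tested genes, -0.65 with the authors' scaling factors and -0.54 centred within 20 bins of gene length. Over the 12 tested mRNA genes, difference and gene length had a Spearman correlation of 0.48, the longer genes tending to be less reduced. It was 0.50 over the 8 without near-identical copies. The nuclear lists were not centred by length. The mRNA read-share ratio was 0.693 without lens markers in the totals and 0.656 with the authors' scaling factors. The mt-rRNA difference, reported as 3.88, was 3.997 rescaled to TPM, 3.77 centred and 3.74 with the authors' factors, which gave an rRNA ratio of 14.2. With no filter the tRNA median was 0, since 21 of 22 genes had no read. The median of all tested genes was 0.20 rescaled to TPM and -0.01 with the authors' factors.

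Over the whole table, 487 genes were at least 2-fold higher and 114 at least 2-fold lower. Higher genes numbered 924 and 998 with pseudocounts of 0.1 and 0.01, 251 with an FPKM of at least 5, and 1447 and 55 at 1.5-fold and 4-fold. Lower genes numbered 254 and 273 with those pseudocounts, 27 with an FPKM of at least 5, 30 with CPM, and 409 and 8 at 1.5-fold and 4-fold. Centring within length bins and leaving out the mRNA genes with near-identical copies were chosen after the data were seen. No paired analysis was possible because each group is 1 library. Depth limits mt-Co2 and mt-Co3, with 30 to 57 reads a library, and counting intervals say nothing on differences between animals.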

Other observations

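Mitochondrial pathways outside the respiratory chain differed less than the mitochondrial mRNA genes. Tricarboxylic acid cycle genes had a median difference of -0.11 over 13, 11 of them below 0, where 35.1% of all tested genes lay below 0 and their median was 0.11. The isocitrate dehydrogenase subunit genes Idh3g and Idh3a had ratios of 0.793 (0.736 to 0.856) and 0.821 (0.764 to 0.882), and Ogdh, for a subunit of oxoglutarate dehydrogenase, had 1.03 (0.982 to 1.08). Genes of protein import and membrane channels had a median of -0.11 over 13, 9 of them below 0, against the same 35.1%. The ATP/ADP carrier genes Slc25a5 and Slc25a4 had ratios of 0.783 (0.747 to 0.820) and 0.786 (0.765 to 0.808), and Hspa9, the chaperone that pulls proteins into the matrix, 1.10 (1.04 to 1.17).

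Regulators of mitochondrial biogenesis had 7 of 11 genes above 0 and 4 below, near the 64.9% of all tested genes that lay above 0. Their median was 0.22, where that of all tested genes was 0.11. Gabpb1 and Gabpa, the subunits of a transcription factor that drives nuclear respiratory genes, had ratios of 1.53 (1.34 to 1.76) and 1.31 (1.17 to 1.46), and the nuclear receptor gene Esrrg 0.902 (0.827 to 0.983). None of these 11 was at least 2-fold higher or lower, where 3.07% of all tested genes were higher and 0.718% lower.

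Markers of other cell types in the eye are given by their summed share of reads. A sum can be carried by 1 gene, and in some lists the members went different ways. Ganglion cell markers took 0.0529% of reads in OIR and 0.0762% in NOR, and Müller glia markers 0.248% and 0.337%. Glul held 20082 of the 50499 Müller glia reads in OIR and 26746 of the 53028 in NOR. Slc1a3, with a ratio of 1.36 (1.29 to 1.44), was the only 1 of the 6 Müller glia markers above 0 in difference. Bipolar cell markers took 0.0830% in OIR and 0.0992% in NOR, and cone markers 0.0620% and 0.0698%. Corneal epithelium markers took 0.239% in OIR and 0.0975% in NOR, extraocular muscle markers 0.0170% and 0.0141%, and retinal pigment epithelium markers 0.103% and 0.101%. Erythrocyte markers took 0.0956% in OIR and 0.0344% in NOR, and endothelial markers 0.0313% and 0.0204%. The part of such shifts in the mitochondrial values was not tested.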
